A study of Mus musculus with 66 samples.

Results

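The C2C12 line that expresses GFP-tagged H3mm12 was compared with 8 C2C12 lines that express other GFP-tagged histone H3 proteins, using the mRNA-Seq libraries of growing and of differentiated cells. C2C12 is a mouse myoblast cell line that fuses into myotubes when serum is withdrawn. The H3mm12 line contributed 2 libraries of the 20 mRNA-Seq libraries, within a series of 66 samples that also holds other assays. The other lines carried H3.1, H3.2, H3.3, H3mm7, H3mm11, H3mm13, H3mm16 or H3t, and contributed 16 libraries. In all 9 lines the H3 protein carried GFP at its N-terminus and was placed under a doxycycline-dependent promoter, and the study's methods state that the vector was inserted by a transposase, that transfected cells were kept in doxycycline and G418, and that GFP-positive cells were then sorted. Growing cells were kept in 20% fetal bovine serum, and differentiated cells were collected after 48 h in 2% horse serum. Each line was represented by 1 library in each state, so the value of H3mm12 has no replicate, and differences between lines cannot be told apart from differences between the cell populations from which the lines were raised.

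A gene was called outside the range when its log2(FPKM + 1) value in the H3mm12 library lay above the highest or below the lowest of the other 8 lines in the same state. FPKM counts fragments scaled by transcript length and by the number of mapped fragments. The gap is the distance, in log2(FPKM + 1) units, from H3mm12 to the nearest of the other lines. Of 22489 genes in the table, 10931 had a mean of at least 1 FPKM over the 18 GFP-H3 libraries and were compared. The untagged parental cells (WT) were left out of the range.

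Histone H3 variants of the H3.3 type are deposited into chromatin outside DNA replication by chaperones such as HIRA and DAXX, and H3.3 is enriched at active genes and regulatory elements. H3mm12 belongs to a group of mouse genes that resemble an intronless copy of H3f3a, one of the 2 genes for H3.3. Differentiation of myoblasts is driven by the transcription factors MyoD and myogenin together with MEF2 proteins, which activate the genes of the sarcomere while the cells leave the cell cycle.

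The coding part of H3mm12 lies in Gm12657, annotated as a pseudogene on the plus strand of chromosome 4 (mm9, chr4:94260341-94267001). The coding part overlaps no exon of Plaa, the gene around it, which is transcribed from the minus strand (chr4:94234205-94269935). Over its 411 bases the sequence differs from the H3f3a coding sequence at 6 positions, and from those of H3mm13, H3mm11, H3mm7 and H3mm16 at 8, 8, 9 and 11 positions. Counted from the A of the start codon, the differences from H3f3a are C36G, A45C, G46T, C144A, A293G and A299T. Of these, 4 change the protein, as K14N, A15S, E97G and Y99F with residues numbered after removal of the initiator methionine. Lysine 14 of H3 is a well known site of acetylation. The stretches around these changes are shown because they hold the bases that set H3mm12 apart from the related genes. They are genomic sequences (mm9), and the purchased cDNAs of the constructs were not analysed here. Capitals in the H3f3a lines mark bases that differ from H3mm12, and capitals in the other lines mark bases that differ from H3f3a. The first stretch covers coding bases 31 to 60, in H3mm12 at chr4:94266106-94266135:
H3f3a: tccacCggtggtaaAGcacccaggaaacaa
H3mm12: tccacGggtggtaaCTcacccaggaaacaa
H3mm13: tccaccggtggtaaagcacccaggaaacaa
H3mm16: tccaccggtggtaaagcacccaggaaaAaa
The second stretch covers coding bases 283 to 312, in H3mm12 at chr4:94266358-94266387:
H3f3a: gaggcaagtgAggcctAtctggttggcctt
H3mm12: gaggcaagtgGggcctTtctggttggcctt
H3mm13: gaggcaagtgaggcctatctggttggcctt
H3mm16: gaggcaagtgaggcctatctggttggTctt
H3mm13 and H3mm16 have the H3f3a bases at each of the H3mm12 positions in these windows. The longest run of bases that H3mm12 shares without a mismatch is 157 with H3mm11, 148 with H3f3a, 139 with H3mm16, 118 with H3mm13 and 112 with H3mm7.

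Gm12657 was used to check the label of the line. In growing cells it was listed at 274 FPKM in the H3mm12 library, against 71.7 in H3mm13, 44.3 in H3mm16 and 16.8 in H3mm11. The remaining 5 lines had values of at most 0.908 FPKM, and WT had 0.231. The H3mm12 library was therefore the highest in growth, with a gap of 1.92. In differentiated cells the values were 128 FPKM in H3mm12, 134 in H3mm13, 45.2 in H3mm16 and 4.67 in H3mm11, and at most 1.33 in the other 5 lines. Gm12657 did not separate H3mm12 from H3mm13 in that state. The lines with other H3.3-type constructs were not alike, since H3.3 (0.175 FPKM) and H3mm7 were among the 5 low lines in growth, and the order of the lines did not follow the length of the run shared with H3mm12. How the reads of near-identical copies were divided was not tested, so levels of Gm12657 are uncertain. Values for H3f3a and H3f3b were not analysed here.

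**Figure D1:**
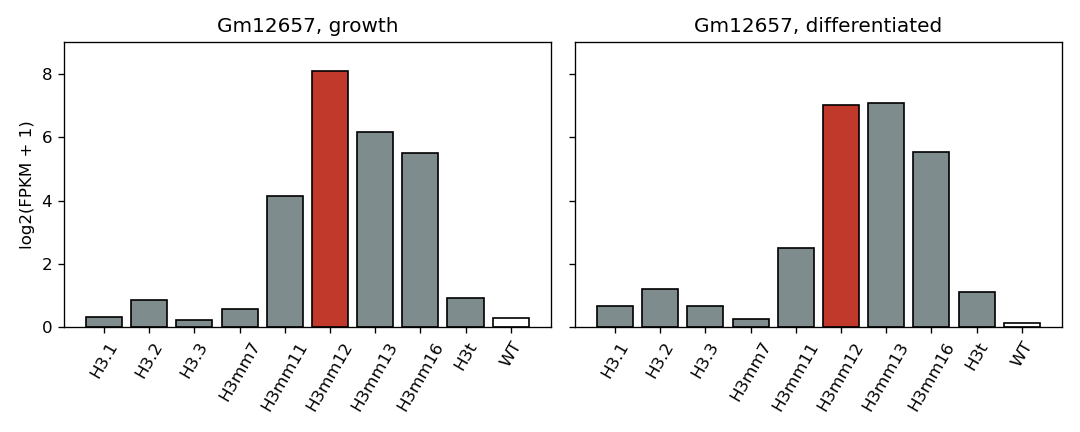
Bars give log2(FPKM + 1) of Gm12657, the H3mm12 locus, in each line and in WT, with 1 library per bar, in growing (left) and differentiated (right) cells. H3mm12 (red) is the highest in growth at 274 FPKM, and H3mm13 is as high as H3mm12 after differentiation (134 and 128 FPKM).

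The deposited values give no read depth, and the number of genes at or above 1 FPKM was 10581 in the growing and 10675 in the differentiated H3mm12 library, within the ranges of the other lines (10401 to 10754 and 10594 to 10891). Genes above 0 numbered 14540 in the differentiated H3mm12 library, below the other 8 lines (14942 to 16829). The skeletal muscle markers summed to 12729 FPKM in the differentiated H3mm12 library against 3233 to 9406 in the other lines, and all 8 were at 1 FPKM or more. The 5 smooth muscle markers summed to 3281 FPKM, against 764 to 2883, and their part in the results on contractile genes was not tested. Of the defining markers of other cell types, Adipoq, Plin1, Col2a1, Gfap, Epcam, Ptprc and Cd3e were listed at 0 in both H3mm12 libraries, but not all markers were. In growth 1 of 7 adipocyte markers was at 1 FPKM or more, and the list summed to 22.3 FPKM, against 15.3 to 35.2. For osteoblast and chondrocyte markers it was 2 of 8, summing to 16.7 FPKM, below the other lines (17.7 to 24.8). For leukocyte markers it was 1 of 7, summing to 7.47 FPKM, against 6.44 to 9.29. For endothelial markers it was 1 of 6, summing to 1.804 FPKM, against 1.066 to 7.691. Of the 7 neural markers 3 were at 1 FPKM or more, and they summed to 283 FPKM in growth, within the other lines (130 to 289), while the mean of those compared was the highest of the 9 lines (5.52 against 4.17 to 5.41). The epithelial markers summed to 68.9 FPKM in growth, against 56.6 to 87.1. WT stood apart from all 9 lines in several respects. Its total was 409319 FPKM in growth and 465247 after differentiation, against at least 617396 and 583613 in the GFP-H3 lines. The 76 ribosomal protein genes averaged 4.92 and 4.83 on the log2(FPKM + 1) scale in its 2 libraries, against 10.1 to 10.3 and 10.0 to 11.2 in the GFP-H3 lines.

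H3mm12 lay outside the range of the other lines for more genes after differentiation than in growth. In growing cells 909 genes were above (8.32% of those compared) and 901 below (8.24%), and in differentiated cells 1790 were above (16.4%) and 1140 below (10.4%). The same side held in both states for 300 higher genes (2.74%) and 145 lower genes (1.33%). A further 554 genes were higher (5.07%) and 687 lower (6.28%) in growth only, and 1421 were higher (13%) and 940 lower (8.6%) in differentiated cells only. Most distances were small. The median gap was 0.08 above and 0.07 below in growth, and 0.17 above and 0.13 below in differentiated cells. A gap of at least 0.5 was found for 12 higher (0.11%) and 6 lower (0.0549%) genes in growth, and for 222 higher (2.03%) and 84 lower (0.768%) genes in differentiated cells. No gene had a gap of 1 or more on the same side in both states.

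Being outside the range of 8 lines was common for every line. When each line in turn was set against the remaining 8, the number of genes outside on the same side in both states ran from 104 for H3mm16 to 1936 for H3t, with 445 for H3mm12, which ranked 5th. In growth H3mm12 also ranked 5th (1810 genes, with a median of 2099 over the other lines), and in differentiated cells it ranked 4th (2930 genes, with a median of 2188). With a gap of at least 0.5 required, it had 306 genes in differentiated cells and the others had 13 to 576. H3mm12 thus lay within the spread of the lines on each of these counts.

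The line nearest to H3mm12 was H3mm16 in both states. Across the 10931 genes, which are not independent replicates, Pearson's r was 0.991 with H3mm16 and 0.990 with H3mm13 in growth, and 0.965 with H3t, the most distant line. After differentiation r was 0.980 with H3mm16, 0.976 with H3mm13 and 0.901 with H3mm7. Only 231 genes differed by 1 or more on the log2(FPKM + 1) scale between H3mm12 and H3mm16 after differentiation, against 2054 between H3mm12 and H3mm7. H3mm16 was the next line below H3mm12 for 612 of the 1790 genes above the range in differentiated cells (34.2%). It was the next line above for 252 of the 1140 genes below the range (22.1%).

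The moderated test of limma, which took the single H3mm12 library to vary as the other 8 lines do, called almost no gene. A call required that the difference reach 1 and that p, adjusted by the Benjamini-Hochberg method, be under 0.05. In growth it called 0 genes higher (0%) and 1 lower (0.00915%), and in differentiated cells 0 higher and 0 lower (0%). At an unadjusted p below 0.05 there were 217 genes in growth and 595 in differentiated cells, which is 1.99% and 5.44% of the genes. The mean of both states gave 0 higher calls (0%) and 1 lower call (0.00915%), and the change on differentiation gave 1 higher call (0.00915%) and 0 lower calls (0%). The gene called in growth, in the mean and in the change was G3bp2, a stress granule protein, chosen for mention after its values were seen. It was listed at 0 in the growing H3mm12 library and at 33.5 to 50.6 FPKM in the other 8 lines, while after differentiation it was at 22.9 FPKM within their range of 17.98 to 31.5. An exact 0 for a gene at this level can be a failed estimate, so its call was not read as a difference. Without H3mm11, the calls numbered 3 in growth, 1 in differentiated cells, 3 in the mean and 3 in the change, and without H3mm16 the mean gave 2. All differences described below are therefore positions relative to the other lines and were not called by the test unless stated.

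**Figure D2:**
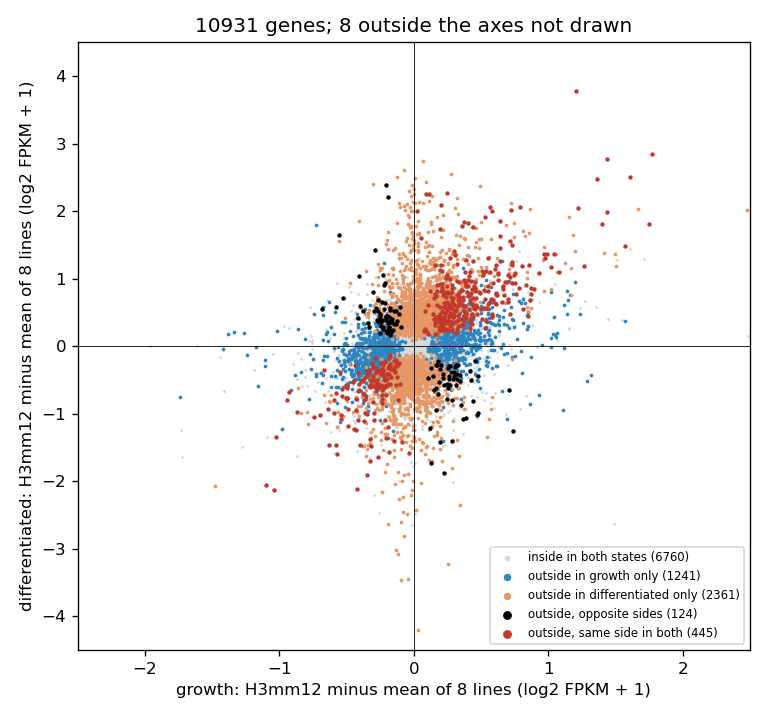
Each point is a gene, placed by the difference of H3mm12 from the mean of the other 8 lines (log2(FPKM + 1)) in growing cells (horizontal) and in differentiated cells (vertical). The spread is wider along the vertical axis, and red points mark the 445 genes outside the range on the same side in both states, of which 300 are higher. The axes differ in scale, and 8 genes beyond them are not drawn.

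The 12 genes with the widest gaps above the range in both states are given here with their functions. C1qtnf3, a secreted protein of the C1q and TNF related family, was at 30.9 FPKM in growing H3mm12 cells, against a lowest, median and highest value of 3.50, 8.28 and 17.9 in the other lines. After differentiation it was at 671 FPKM, against 36.1, 106 and 259. H3mm12 was above all 8 lines in both states, and the difference in differentiated cells was 2.85 ± 0.92 (SE) with an adjusted p of 0.874 by limma. Sh3bgr had the largest gap that held in both states. It was at 5.91 FPKM in growth, against 1.18, 2.04 and 2.82, and at 20.7 FPKM after differentiation, against 1.22, 4.63 and 10.7. Myl6b, a myosin light chain, was at 26.6 FPKM in growth, where the other lines ran from 3.96 to 16.5, and at 630 FPKM after differentiation, where they ran from 52.1 to 336. Being highest in H3mm12 in growth as well was the condition by which these genes were picked. Of the 1790 genes above the range after differentiation, 1421 were within it in growth.

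Chrna1, the alpha subunit of the muscle acetylcholine receptor, was at 83.6 FPKM in growing H3mm12 cells, against 35.7, 43.4 and 67.4 in the other lines. It was at 317 FPKM after differentiation, against 118, 208 and 231. Dtna, which encodes alpha-dystrobrevin of the dystrophin complex, was at 5.76 FPKM in growth, against 2.48 to 4.11, and at 19.1 FPKM after differentiation, against 9.29 to 14.999. Sync, the intermediate filament protein syncoilin that binds dystrobrevin, was at 20.0 FPKM, against 8.44 to 14.9, and at 83.5 FPKM, against 32.9 to 66.7. Differences of H3mm12 from the mean of the other lines in growth were 0.87 ± 0.28 for Chrna1, 0.65 ± 0.21 for Dtna and 0.83 ± 0.27 for Sync, none of them called by limma. The remaining genes of this set were Cntn3, a cell adhesion molecule, Dync1i1, a dynein intermediate chain, Npnt, the integrin ligand nephronectin, Neurl1a, an E3 ubiquitin ligase, Amacr, a racemase of branched fatty acid oxidation, and 2310015B20Rik. Their gaps ran from 0.29 to 0.82 in growth and from 0.32 to 0.93 in differentiated cells. WT was above H3mm12 for 0 of the 12 genes in growth and for 4 after differentiation, with 1355 FPKM for C1qtnf3, 474 for Chrna1, 27.5 for Dtna and 242 for Npnt.

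Among the 12 genes lowest below the range in both states, the transcription factor Myc was the furthest below in growth. It was at 16.9 FPKM in growing H3mm12 cells, against 25.0, 37.7 and 44.5 in the other lines. After differentiation it was at 8.53 FPKM, against 9.68, 43.4 and 105. The difference in growth was -1.04 ± 0.26, with an adjusted p of 1.00 by limma. Srm, which encodes spermidine synthase, was at 115 FPKM in growth, against 141, 176 and 215, and at 24.1 FPKM after differentiation, against 32.1, 52.1 and 268. The folate carrier gene Slc19a1 was at 15.6 FPKM, against 19.1, 24.8 and 37.7, and at 3.84 FPKM, against 5.77, 10.1 and 59.8. H3mm12 was below all 8 lines for each of these genes in both states, although the distance to the nearest line was at most 0.54.

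Ddx18, a nucleolar RNA helicase, was at 46.8 FPKM in growing H3mm12 cells, against 52.9 to 78.6 in the other lines, and at 23.8 FPKM after differentiation, against 27.5 to 59.4. Hmga2, an architectural chromatin protein of proliferating cells, was at 26.0 FPKM in growth, against 29.9, 44.3 and 54.4, and at 4.45 FPKM after differentiation, against 6.86, 9.37 and 20.3. Irs2, an adaptor of insulin and IGF signalling, was at 2.47 FPKM, against 3.35 to 6.96, and at 2.21 FPKM, against 2.95 to 8.44. The other members were Fxyd5, a regulator of the sodium pump, Adamts2, a procollagen protease, Gemin5 of the SMN complex, Eva1c, Gm13154 and Gm9855. Gm13154 and Gm9855 are predicted genes whose reads may be shared with near copies. Gm9855 was no longer below the mean in growth when WT was added, with a difference of 0.08 (-0.54 without WT). That change rests on WT, where Gm9855 was listed at 0 in both states. In growth it was at 31.4 FPKM in H3mm12 and at up to 63.7 in the other GFP-H3 lines, so the 0 can be a failed estimate.

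**Figure D3:**
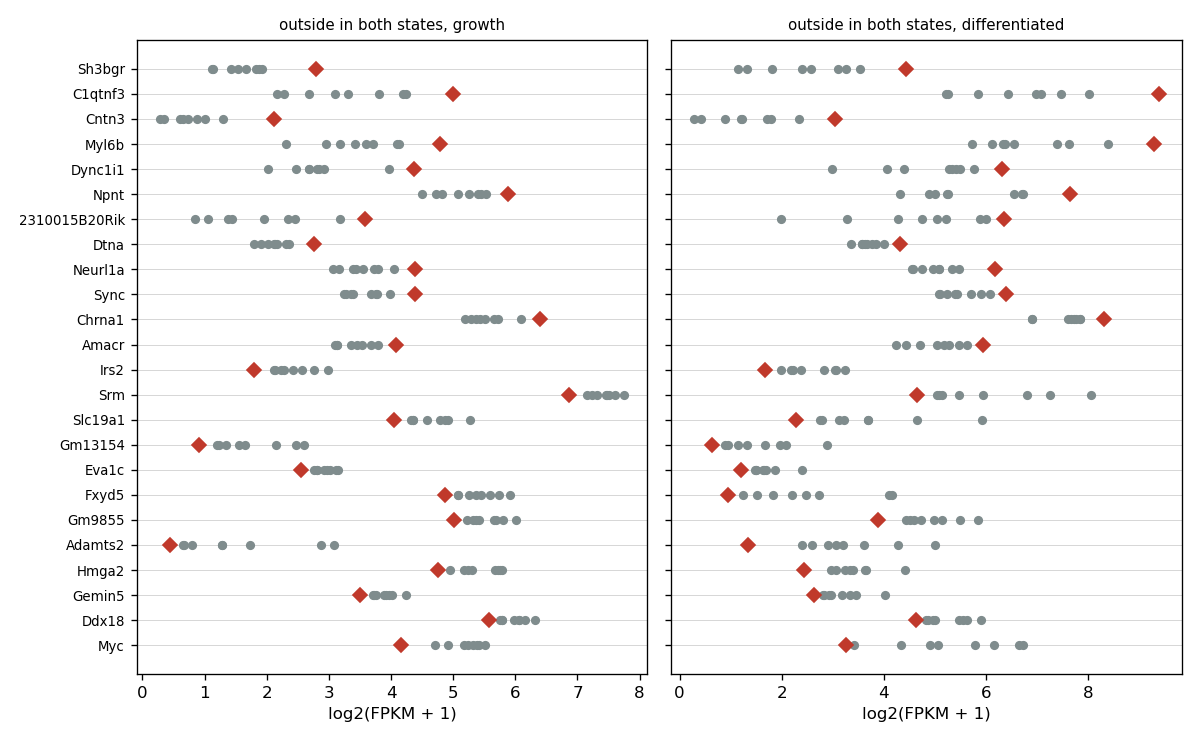
Points give log2(FPKM + 1) of the 12 highest and 12 lowest genes outside the range on the same side in both states, with 1 grey point for each of the 8 other lines and a red diamond for H3mm12. In the upper 12 rows the diamond lies to the right of all grey points and in the lower 12 to the left, with wider distances for several genes after differentiation.

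The genes outside the range in growth only included few with wide gaps. Clec2d, a C-type lectin, was at 6.37 FPKM in growing H3mm12 cells, against 1.99, 2.17 and 3.05 in the other lines, with a difference of 1.14 ± 0.20 and an adjusted p of 0.855 by limma. After differentiation it was at 56.1 FPKM, within their range of 21.5 to 65.8. Efhd1, a mitochondrial calcium-binding protein, was at 19.6 FPKM in growth, against 3.15, 8.30 and 10.9. BC028528 was at 15.7 FPKM, against 7.14, 8.46 and 9.14. Mgam, a maltase, and Fgfbp1, which binds fibroblast growth factors, were at 2.18 and 5.17 FPKM, where the highest of the other lines were at 0.897 and 3.36. Together with Gm12657 these were the 6 genes with the widest gaps above the range in growth only.

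On the lower side in growth only, Enah, a regulator of actin filament growth, was at 3.62 FPKM in H3mm12, against 7.83, 10.4 and 16.3 in the other lines. The difference was -1.34 ± 0.32, with an adjusted p of 1.00 by limma, and after differentiation Enah was at 31.7 FPKM, within the range of 18.3 to 34.4. Dusp9, a MAP kinase phosphatase, was at 3.81 FPKM, against 6.57, 7.50 and 10.9. Sgk1, a serum-responsive kinase, was at 24.5 FPKM, against 35.7, 48.5 and 101. Inhbb, which encodes the beta B subunit of activins, was at 1.07 FPKM, against 1.85, 4.10 and 6.37. Nrg1, a ligand of ERBB receptors, and Ptprn, a protein of secretory granules, were below the others at 1.94 and 0.855 FPKM, where the lowest of the other lines were at 3.15 and 1.71.

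In growing cells the immediate early genes, which respond to serum and growth factors, were below the range for 8 of 23 members and above it for 3, beside 8.24% and 8.32% of all genes. The mean of the list was 4.29 in H3mm12, below the other lines (4.34 to 4.80), on the log2(FPKM + 1) scale, and the median difference was -0.26. Members below the range besides Myc were Fosl1, at 10.2 FPKM against 13.6, 17.7 and 23.1, and Egr1, at 5.60 FPKM against 6.12, 8.64 and 19.5. Klf4 was above it, at 50.7 FPKM against 16.5, 35.2 and 41.1. The direction did not hold after differentiation, where the list mean of H3mm12 was 5.05 and the 4th highest of the 9 lines. Jund was above the range in both states, at 91.4 FPKM against 49.0 to 87.1 and at 133 FPKM against 69.4 to 127.

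Cell cycle genes showed little difference. Of 36 members, 5 were below and 1 was above the range in growth, beside 8.24% and 8.32% of all genes. In differentiated cells 1 was below and 1 above, beside 10.4% and 16.4%. The median differences were -0.09 and 0.00. The list mean fell within the other lines in both states, at 6.04 against 6.00 to 6.27 in growth and at 2.54 against 1.71 to 3.85 after differentiation. Mcm3, a subunit of the replicative helicase, was at 69.3 FPKM in growing H3mm12 cells, against 76.8 to 96.0. Rrm2, a subunit of ribonucleotide reductase, was at 115 FPKM in differentiated H3mm12 cells, above the other lines (20.5, 41.8 and 94.2).

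Factors of ribosome assembly formed another group on the lower side in growth, noticed after the values were seen and collected by symbol (Nop, Utp, Rrp and Noc genes). Below the range were 14 of 26 members, and 0 were above, beside 8.24% and 8.32% of all genes. The list mean was 4.68 in H3mm12, against 4.83 to 5.24 in the other lines. Nop2, a nucleolar RNA methyltransferase, was at 41.0 FPKM, against 56.4, 61.9 and 72.9, and Rrp12 was at 11.3 FPKM, against 15.5, 17.2 and 20.3. None of the 14 had a gap of 0.5. After differentiation 4 members were below and 4 above the range (15.4% each), beside 10.4% and 16.4% of all genes. Ribosomal protein genes were below the range for 11 of 76 members in growth and for 0 after differentiation, beside 8.24% and 10.4% of all genes. In either state 0 were above it, beside 8.32% and 16.4% of all genes.

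After differentiation nearly all genes of the sarcomere and of muscle contraction had their highest value in H3mm12. The line was above all 8 other lines for 31 of 32 members (96.9%, beside 16.4% of all genes), and below for 0. The median difference was 1.67 against 0.02 over all genes, and 16 of the 32 were above by at least 0.5, beside 2.03% of all genes. The list mean was 8.41 on the log2(FPKM + 1) scale, against 5.95 to 7.85 in the other lines, with H3mm16 next. Only Casq1, a calcium-binding protein of the sarcoplasmic reticulum, was within the range, at 4.67 FPKM against 0.474 to 8.63. In growing cells only 1 member was above the range and 2 were below it, beside 8.32% and 8.24% of all genes, with a median difference of 0.06. In these bulk libraries a larger share of fused cells and more muscle RNA per cell cannot be told apart.

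Myh3, the embryonic myosin heavy chain, was at 712 FPKM in differentiated H3mm12 cells, against 54.9, 97.0 and 343 in the other lines. Tnni1, the slow troponin I, was at 1179 FPKM, against 180, 512 and 602. The nebulin gene Neb was at 45.9 FPKM, against 2.21, 7.23 and 28.3, and was the 1 list member above the range in both states, at 0.139 FPKM in growth against 0.0218 to 0.120. Tnnt1, the slow troponin T, was at 1070 FPKM, against 116, 269 and 647, a difference of 2.04 ± 0.80. Actn3, an alpha-actinin of fast fibres, was at 262 FPKM, against 27.6, 73.2 and 146, a difference of 1.92 ± 0.69. No member of the list was called by limma. The spread between the other lines was wide for these genes, and the SE of these differences ran from 0.69 to 0.96.

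WT reached a list mean of 8.22 for the sarcomere genes after differentiation, between H3mm12 and H3mm16. With WT counted as a ninth line, 20 of the 32 genes remained above all others, and the other 7 GFP-H3 lines had list means of 5.95 to 7.67. In growth the WT mean was 1.56 and that of H3mm12 was 2.06.

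Among regulators of myogenesis, after differentiation 7 of 15 members were above the range (46.7%, beside 16.4% of all genes) and 1 was below (6.67%, beside 10.4%). Myod1 was at 107 FPKM in H3mm12, against 25.9, 38.7 and 64.4 in the other lines, and Myog, which encodes myogenin, was at 1151 FPKM, against 329, 505 and 930. The fusion gene Tmem8c (myomaker) was at 1060 FPKM, against 269, 582 and 735, and the cell cycle inhibitor Cdkn1a was at 1180 FPKM, against 398, 594 and 856. In growth 4 members of the list were above the range and 0 below, beside 8.32% and 8.24% of all genes. The list mean in growth was 5.29, second to H3mm7 (5.46), and Myod1 was at 68.0 FPKM, against 110 in H3mm7. Mef2a and Rb1 were above the range in both states. Mef2a was at 13.9 FPKM in growth, just above the highest other line (13.7), and at 79.9 FPKM after differentiation, against 30.997 to 67.8. Rb1, the retinoblastoma gene, was at 10.5 FPKM, against a highest value of 10.4, and at 63.4 FPKM, against 19.5 to 53.3.

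Myf5, a determination factor of myoblasts, was on opposite sides in the 2 states. It was at 64.9 FPKM in growing H3mm12 cells, above the other lines (25.3, 39.6 and 56.1), and at 19.9 FPKM after differentiation, below them (22.2, 51.9 and 95.9). In all, 55 genes were above in growth and below after differentiation (0.503%), and 69 were below and then above (0.631%). Gm11110, a predicted gene, took the same course as Myf5. Thop1, a peptidase, and Mad1l1, a protein of the spindle checkpoint, took the other, with Thop1 at 31.2 FPKM in growth against 35.5 to 55.7, and at 78.9 FPKM after differentiation against 22.2 to 64.2. Gm4013 was the third such gene, at 0.431 and then 1.84 FPKM.

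The widest gaps above the range in differentiated cells only were found for Fst, Csdc2, Bcam, Trim55, Trim72 and Abra. Fst encodes follistatin, which binds myostatin and activins. It was at 20.7 FPKM in H3mm12, against 0.575, 2.58 and 5.64 in the other lines, while in growth it was at 0.441 FPKM, within 0.237 to 0.624. Trim72, a membrane repair protein of muscle, was at 109 FPKM, against 10.9, 15.97 and 43.2. Trim55, a ubiquitin ligase of the sarcomere, was at 58.9 FPKM, against 8.59, 13.3 and 22.0. Abra, an actin-binding protein of striated muscle, was at 16.6 FPKM, against 1.03, 2.12 and 6.14. Csdc2, an RNA-binding protein, was at 21.6 FPKM, against 1.14, 4.97 and 5.93, and Bcam, a laminin receptor, was at 30.1 FPKM, against 1.45, 6.01 and 10.1. The differences from the mean of the other lines ran from 2.03 ± 0.46 for Trim55 to 2.75 ± 0.67 for Fst, each with an adjusted p of 0.874 by limma. WT was above H3mm12 for 4 of these 6 genes after differentiation, at 82.9 FPKM for Fst, 164 for Trim72, 25.3 for Abra and 30.6 for Bcam, and below it for Csdc2 (17.8) and Trim55 (49.6).

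**Figure D4:**
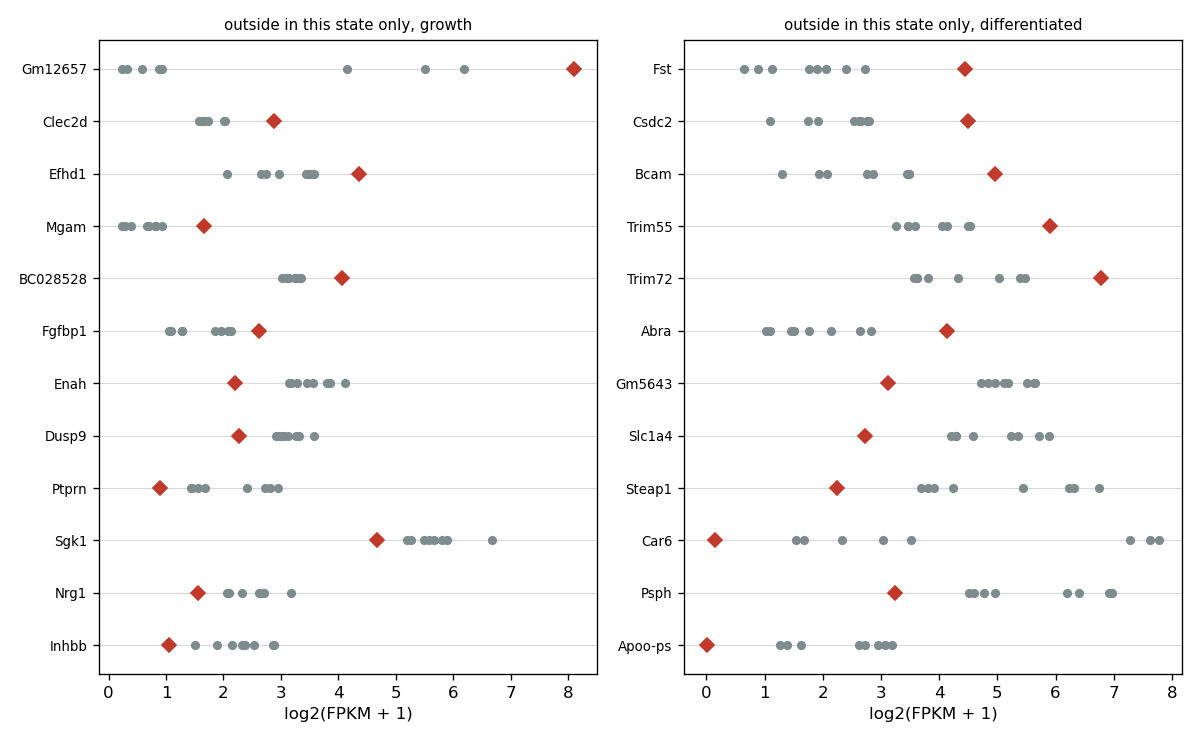
Points give log2(FPKM + 1) of the genes with the widest gaps outside the range in growing cells only (left) and in differentiated cells only (right), with grey points for the 8 other lines and a red diamond for H3mm12. On the right the diamond stands at least 1.26 units from the nearest line for all 12 genes, and on the left Gm12657 has the widest gap (1.92).

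Igf2 and H19, neighbouring imprinted genes of myoblast growth, were both toward the top. H19 was at 578 FPKM in growing H3mm12 cells, second to H3mm7 (799 FPKM), and at 6619 FPKM after differentiation, above the other lines (678, 1111 and 5691). Igf2 was above the range in both states but was listed at 0 in 2 of the other lines after differentiation, and its values are not given. In the IGF, TGF-beta and Notch list, 6 of 25 members were above the range after differentiation (24%, beside 16.4% of all genes), Igf2 among them, and 1 was below (4%, beside 10.4%).

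Subunits of the respiratory chain and of the ATP synthase were also above the range in many cases. The group was noticed after the values were seen and was collected by symbol, without regard to single values. After differentiation 54 of 77 members were above all other lines (70.1%, beside 16.4% of all genes) and 0 were below. In growth 17 were above and 0 below, beside 8.32% and 8.24% of all genes. In both states 14 were above, beside 2.74% of all genes. The list mean was 8.51 after differentiation, against 7.75 to 8.25 in the other lines, and 7.61 in growth, where only H3mm7 was higher (7.71). The distances were small, with a median difference of 0.54 after differentiation and 0.13 in growth. After differentiation 1 member was above by at least 0.5, beside 2.03% of all genes. That member was Cox8b, a muscle subunit of cytochrome c oxidase, at 686 FPKM against 70.1, 126 and 444.

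Several subunits are given as examples, and 23 of the 77 were not above the range. Ndufs3, a core subunit of complex I, was at 265 FPKM in differentiated H3mm12 cells, against 117, 172 and 193. Uqcr11, of complex III, was at 1363 FPKM, against 515, 884 and 1021. Atp5k, of the ATP synthase, was at 2014 FPKM, against 576, 829 and 1511. Ndufa4 was above in both states, at 1001 FPKM in growth against 534, 754 and 885, and at 1274 FPKM after differentiation against 701, 828 and 993. These transcripts are short, with a median annotated length of 955 bases. When genes were split into 5 equal classes by their longest annotated transcript, 18.7% of the shortest class and 15.5% of the longest class were above the range in differentiated cells. Ribosomal protein genes, with a median length of 932 bases, were above it for 0%. The part of transcript length in the respiratory chain counts was not tested. With WT counted as a ninth line the number above was 45 after differentiation, and the WT means (6.42 in growth and 7.22 after differentiation) lay below all 9 lines.

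On the lower side in differentiated cells, most genes of amino acid synthesis and transport had their lowest value in H3mm12. The list was drawn up after the values were seen, because Slc1a4 and Psph were among the 6 genes with the widest gaps. Of its 22 members 19 were below the range (86.4%, beside 10.4% of all genes) and 0 were above. By at least 0.5, 11 were below, beside 0.768% of all genes. The list mean was 3.99 in H3mm12, against 4.64 to 6.58 in the other lines, and the median difference was -1.63. Slc1a4, a transporter of neutral amino acids, was at 5.58 FPKM, against 17.4, 29.8 and 58.4. Psph, the last enzyme of serine synthesis, was at 8.47 FPKM, against 22.0, 51.2 and 124. Their differences were -2.23 ± 0.62 and -2.42 ± 0.94, both with an adjusted p of 0.874 by limma. In growth the 2 genes were within the range, at 16.6 FPKM against 15.6 to 20.5 and at 24.5 FPKM against 20.3 to 34.5. Over the whole list in growth, 6 of 22 members were below the range and 1 was above, beside 8.24% and 8.32% of all genes. In both states 5 members were below, beside 1.33% of all genes. The list mean in growth was also the lowest of the 9 lines, by a small margin (4.80 against 4.81 to 4.975).

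Further members below the range are given as examples. Pck2, a mitochondrial enzyme that makes phosphoenolpyruvate, was at 11.2 FPKM, against 26.7, 56.2 and 104. Mthfd1l, of mitochondrial folate metabolism, was at 4.02 FPKM, against 10.6, 21.6 and 57.7, and Cth, which makes cysteine, was at 1.06 FPKM, against 3.17, 24.3 and 71.5. Shmt2 was at 48.2 FPKM, against 77.5, 145 and 435. The 3 members that were not below the range were Gpt2, Shmt1 and Slc7a5. Cytosolic tRNA synthetases, collected in the same way, were below the range for 7 of 20 members after differentiation (35%, beside 10.4% of all genes). Above it was 1 member (5%, beside 16.4%), Dars, at 126 FPKM against 61.4 to 97.9. In growth 7 members were also below and 1 above, beside 8.24% and 8.32% of all genes. The list mean of H3mm12 was the lowest of the 9 lines in growth (5.99 against 6.01 to 6.28). After differentiation it was 5.81, and H3.1 was lower at 5.77. WT averaged 4.76 over the amino acid list, nearer to H3.1 (4.64) than to H3mm12.

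The ER stress list, which includes targets of ATF4 and CHOP, had fewer members outside the range. In differentiated cells all 32 members were below the mean of the other lines, with a median difference of -1.32. Of these, 10 were below the range (31.2%, beside 10.4% of all genes) and 0 were above. In growth the median difference was -0.04, with 3 members above and 1 below, beside 8.32% and 8.24% of all genes. Trib3, a pseudokinase induced by ATF4, was at 10.6 FPKM in differentiated H3mm12 cells, against 18.2, 114 and 247, and Hspa5, the ER chaperone BiP, was at 205 FPKM, against 247, 1132 and 3688. Ddit3, which encodes CHOP, was within the range at 46.5 FPKM, against 44.7, 388 and 945. The list mean was 5.30 in H3mm12, beside 5.39 in H3t and 5.57 in H3.1, and 7.85 in H3mm7. H3mm12 was thus at the low end of a wide spread between lines, and without H3mm16 the number below the range was 16.

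Other stress-related lists were mixed, beside 16.4% of all genes above and 10.4% below the range. Ndrg1 was at 32.9 FPKM in differentiated H3mm12 cells, against 61.4, 143 and 503, and Vegfa was at 26.6 FPKM, against 41.1, 71.8 and 94.0, both in a hypoxia and glycolysis list with 5 of 20 members below the range and 1 above. In the oxidative stress and glutathione list 8 of 26 were below (30.8%) and 3 above. Srxn1, which repairs peroxiredoxins, was at 8.47 FPKM, against 12.8, 17.9 and 110. Fth1, the ferritin heavy chain, was above at 7324 FPKM, against 3169 to 5990, while Ftl1, the ferritin light chain, was below at 1622 FPKM, against 1988 to 8879. Of the p53 targets 4 of 21 were above (19%) and 2 below (9.52%), close to the shares of all genes, and Pmaip1 was above in both states, at 16.8 FPKM against 5.70 to 14.3 and at 62.7 FPKM against 19.1 to 49.2.

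The remaining 4 of the 6 genes with the widest gaps below the range in differentiated cells only were Gm5643, Steap1, Car6 and Apoo-ps. Steap1 was at 3.72 FPKM, against 11.9, 30.1 and 106, and in growth it was at 39.8 FPKM, within 32.7 to 47.3. Car6, the secreted carbonic anhydrase, was at 0.105 FPKM, against 1.90, 8.84 and 219. The other lines differed widely among themselves for Car6, with 3 of them far above the rest. Gm5643 and Apoo-ps, at 7.71 and 0.00536 FPKM, are a predicted gene and a pseudogene, and reads from near copies make their levels uncertain. Gm5643 was also low in H3mm12 in growth, at 28.6 FPKM. It was within the range there only because H3mm11 was at 0.179 FPKM, while the remaining GFP-H3 lines were at 124 to 198 FPKM.

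**Figure D5:**
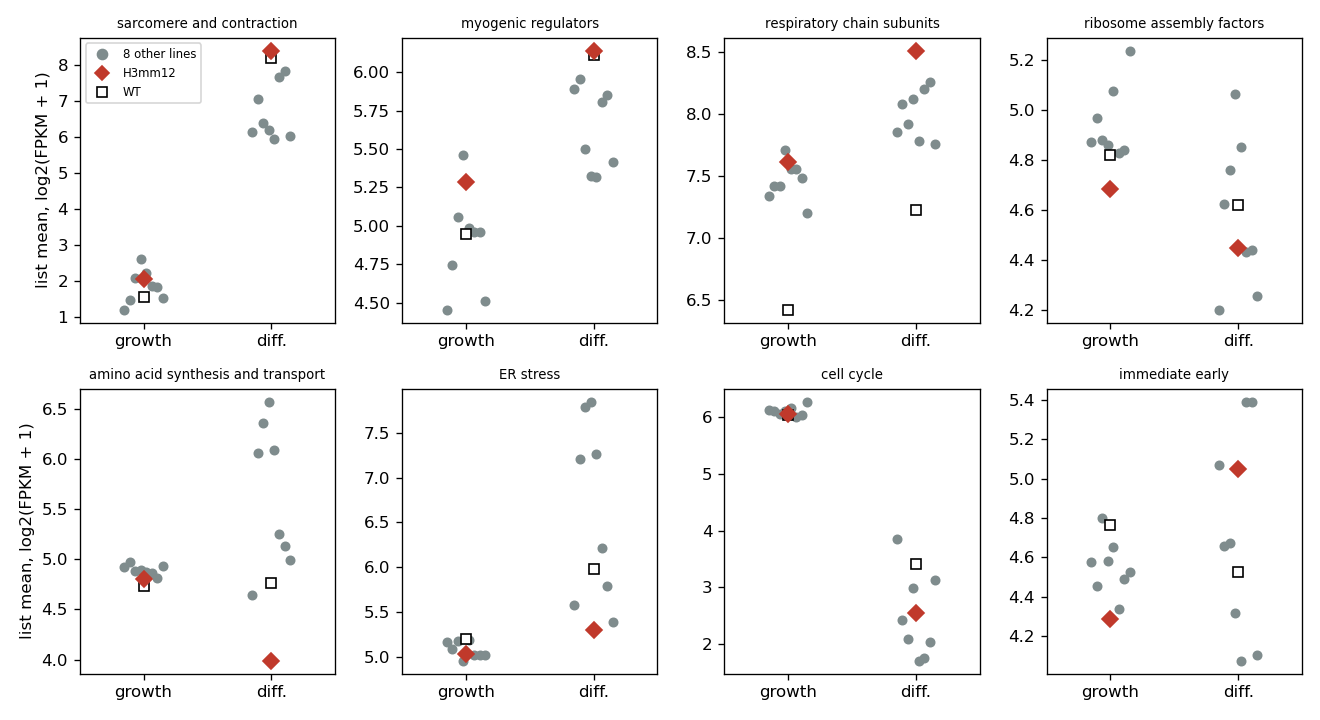
Each panel gives the mean log2(FPKM + 1) of a gene list in growing and differentiated cells, with grey points for the 8 other lines, a red diamond for H3mm12 and an open square for WT. H3mm12 is highest for the sarcomere list (8.41) and the respiratory chain (8.51) after differentiation, lowest for amino acid genes (3.99) after differentiation, and lowest for ribosome assembly factors (4.68) and immediate early genes (4.29) in growth.

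The other lists are given by their counts. Extracellular matrix genes were below the range for 5 of 33 members in growth and 2 after differentiation, beside 8.24% and 10.4% of all genes. They were above it for 2 and 0, beside 8.32% and 16.4%. Their mean in growth was the lowest of the 9 lines (5.41 against 5.47 to 6.07). Tnc, which encodes tenascin C, was at 20.5 FPKM in growth against a lowest value of 20.9, and Bgn, biglycan, was within the range in both states. Of 12 interferon response genes, 3 were below after differentiation (25%, beside 10.4% of all genes) and 1 was above (8.33%, beside 16.4%). Among them Trim25 was above in both states, at 6.41 FPKM against a highest value of 6.30 and at 9.50 FPKM against 8.77, and Isg15 was below after differentiation at 0.831 FPKM against 1.27 to 21.3. The mean of the inflammation list was the lowest of the 9 lines in growth (2.87 against 2.94 to 3.296) and after differentiation (2.96 against 3.09 to 3.72). Csf1, a macrophage growth factor in that list, was below in both states, at 79.0 FPKM against 84.6 to 134 and at 15.4 FPKM against 22.2 to 59.9. Of 23 genes of cholesterol synthesis 1 was above in growth, beside 8.32% of all genes. After differentiation 0 were outside, beside 16.4% of all genes above and 10.4% below.

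Of 23 H3 chaperones and H3 lysine acetyltransferases, 1 was above and 4 were below in growth, beside 8.32% and 8.24% of all genes. After differentiation 1 was above (4.35%) and 2 were below (8.7%), under the shares of all genes (16.4% and 10.4%). Kat2b, the acetyltransferase PCAF, was at 11.1 FPKM in growth against 6.69 to 10.5, and Kat2a, its paralogue GCN5, was at 23.2 FPKM against 25.8 to 38.8. Both were within the range after differentiation. Chaf1b, a subunit of the replication-coupled H3 chaperone CAF-1, was at 26.5 FPKM in growth against 27.8 to 44.0. H2afv, which encodes H2A.V, was above the range in both states, at 35.2 FPKM against 20.7 to 31.5 and at 43.0 FPKM against 15.996 to 38.1. H2afz, its paralogue, was below after differentiation, at 178 FPKM against 207 to 491.

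Promoter sequences from RefSeq (GRCm38.p6), around the first listed start of each gene, were available for 8170 of the 10931 genes. The hexamer CAGCTG, an E-box bound by myogenic factors, was present in 14.9% of them and in 16.1% of all 27025 promoters. It was present in 14 of 27 sarcomere promoters (51.9%), in 22.2% of 216 genes above the range in both states, in 25.7% of 148 genes above it by at least 0.5 after differentiation and in 25.0% of 60 genes below it by at least 0.5. The motif TGATGNAA, searched on both strands and resembling the composite site of CHOP and ATF4, was present in 2.13% of promoters of all compared genes and in 4.06% of all promoters. It was present in 6 of 19 promoters of the amino acid list (31.6%) and in 8 of the 60 genes below by at least 0.5 (13.3%), but in 1.35% of the 148 genes above. The matches did not follow the direction of the genes throughout. CAGCTG was also present in promoters of Slc19a1, Adamts2, Car6, Enah and Sgk1, which were below the range, and TGATGNAA in those of Chrna1 and Tnnt1, which were above it. Windows of 30 bases around 5 matches, picked as examples after the values were seen, are shown on the strand of the gene with the match in capitals. Chrna1 lies at chr2:73580365-73580394, Sync at chr4:129287635-129287664, Slc1a4 at chr11:20332699-20332728, Pck2 at chr14:55540152-55540181 and Trib3 at chr2:152344028-152344057:
Chrna1: tagctgtggagtCAGCTGgcttccaaggcc
Sync: tggtgtccgctgCAGCTGgcagtgcggcgg
Slc1a4: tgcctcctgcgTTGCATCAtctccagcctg
Pck2: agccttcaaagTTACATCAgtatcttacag
Trib3: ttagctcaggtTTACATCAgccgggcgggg
Chrna1 and Sync were above the range in both states, and Slc1a4, Pck2 and Trib3 were below it in differentiated cells only. The capitals of the last 3 are the reverse complement of TGATGNAA. A match describes letters only, and binding was not measured here.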

How the data were processed

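Messenger RNA libraries of C2C12 cells were sequenced by the authors, who aligned reads with TopHat2 (2.0.8) and estimated expression with Cufflinks (2.0.1) and Cuffdiff, per the submitters' processing notes, on mm9. The values deposited by the authors are FPKM per gene. FPKM gives no depth, so precision per value is unknown. The 3′-seq tables were not used here, and 0 columns were left unmapped. The column labelled H3mmT was taken as H3t, the only line with no column of its own name.

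Values were compared as log2(FPKM + 1) for 10931 genes with a mean of at least 1 FPKM over the 18 GFP-H3 libraries. H3mm12 was set against the other 8 lines with limma 3.58.1 (R 4.3.3, trend and robust settings), where a call required a difference of 1 or more and p under 0.05 after Benjamini-Hochberg adjustment, and the code was checked on simulated data. Counts and figures used Python 3.11.15, pandas 2.3.3 and matplotlib 3.10.9. The labels name no separate cultures, so p-values measure only the spread between lines, and an exact test of 1 library against 8 cannot go below 0.222 (two-sided).

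Genes were named by a rule: the 12 with the widest gap on each side in both states (by the smaller gap), 6 on each side in 1 state only, 3 each way on opposite sides, and up to 3 per list. Further list members were named after their values were seen. A gene listed at exactly 0 in a deciding library, with a median over 20 FPKM elsewhere, was counted but not named by the rule, and some items that the rule names are not reported here. The comparison and the 15 gene lists were chosen with earlier results of these data known, and 5 lists were added after the values were seen. Alternatives covered the pseudocount, the filter, normalization, the set of lines and the size of the gap.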

Additional observations from a re-analysis of the deposited data

Results flagged for a closer look

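In 8 of 85 sets of 9 lines, H3mm12 was set apart from the rest by more than Dixon's critical value for 9 samples. The sets were genes named for the distance of H3mm12 from the other lines, in the state that named them, so neither this number nor the line involved is evidence of anything beyond that choice. The ratio of the gap to the whole range was highest for BC028528 (0.693) and Clec2d (0.662), both highest in H3mm12 in growth. Sh3bgr (0.514) and Mgam (0.518) were likewise highest in growth, and Dusp9 (0.50) was lowest. In differentiated cells Csdc2 (0.501) and Trim55 (0.522) were highest in H3mm12 and Gm5643 (0.632) was lowest.

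The change of G3bp2 on differentiation differed between H3mm12 and the other 8 lines by 5.19 on the log2(FPKM + 1) scale, with an adjusted p of 6.6e-07 by limma. It rests on the value of 0 listed for the growing H3mm12 library, which can be a failed estimate.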

How the results depend on the processing

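Counts outside the range depended on which lines formed it. With WT added, 154 genes were higher and 94 lower in both states and 795 were outside in growth only. Without H3.3, H3mm7 and H3mm11, 678 were higher and 241 lower in both states. Against the H3.3-type lines only, 782 were higher and 488 lower. Without H3mm13 and H3mm16, a choice made after seeing the data, 291 were lower in both states. With no filter on low values, 1891 genes were outside in growth only. Requiring a gap of 0.5 left 4 higher and 0 lower genes in both states, 14 in growth only and 302 in differentiated cells only. With 1 line at a time left out, there were 313 to 470 higher genes in both states (470 without H3mm7, 457 without H3t), 154 to 232 lower (232 without H3t), 1281 to 1602 in growth only and 2383 to 2710 in differentiated cells only. A smaller set of lines has a narrower range by construction.

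The share of higher genes among those outside in differentiated cells was 61.1%, 58.9% after median normalization and 72.5% with a gap of 0.5. Calls by limma numbered 2 in growth, 4 in differentiated cells and 2 in the change with no filter. Without H3.3, H3mm7 and H3mm11 they numbered 2, 1 and 3, and 3 in the mean. Leaving out 1 line gave 1 to 3 calls in growth, 0 to 1 in differentiated cells, 1 to 3 in the mean and 1 to 3 in the change. The cause was not tested.

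Leaving out a line cannot lower the number of list members outside the range, so such counts are no test of stability. The sarcomere list had 31 genes above the range whichever line was left out, and 20 with WT added. The ER stress list had 10 to 16 members below when 1 line was left out and 20 against H3.3-type lines only. The respiratory chain had 35 members above in growth without H3.3, H3mm7 and H3mm11. Of 1360 values of named genes under alternatives, 1344 moved by less than the spread between lines and 1 changed sign. The change on differentiation was taken within each line, so it pairs the 2 states by line. For H3mm12 against the other lines within a state, no paired analysis was possible because each line has 1 library and the labels give no replicate numbers.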
